A study of Mus musculus with 20 samples.

Results

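Imprinted genes are transcribed mainly from the copy inherited from one parent, and here they are described at their promoter windows and in their RNA in mouse germline stem cells (GSCs). They were taken as a list of 43 genes matched by symbol. The chromatin table, which has 1 window for each of 25965 genes, held 40 of them, and 39 of these were also in the RNA table of 25067 genes. Mcts2 had a window but no RNA row, and Kcnq1ot1, Rian and Mirg were not analysed here.

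Most imprinted genes lie in clusters, in which a region methylated on only 1 parental copy decides which genes are silent on that copy. In the male germ line the maternal methylation has been erased and the paternal methylation is set, so that both copies carry the paternal type of imprint. Paternal methylation lies between genes, as at Igf2-H19 and Dlk1-Meg3, whereas most maternal methylation lies over CpG-rich promoters such as those of Snrpn, Peg3, Mest and Plagl1, which are unmethylated in the male germ line. Trimethylation of histone H3 at lysine 4 (H3K4me3) marks active and CpG-rich promoters, H3K27me3 is the mark of Polycomb repression, and H3K9me3 marks silent heterochromatin. Kmt2b is a histone H3 lysine 4 methyltransferase whose CXXC domain binds unmethylated CpG. None of the values below separates the 2 parental copies.

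GSCs are the cultured counterpart of spermatogonial stem cells and were grown on fibroblast feeder cells, from duplicate cell lines per the series' design. The knockout cells (FC/FC) had received 4-hydroxytamoxifen (4-OHT) at 1 μM, which activates the Rosa26-CreERT2 recombinase that removes the floxed part of Kmt2b. The control cells (F/F) carried the same floxed alleles and Rosa26-CreERT2 and were mock-treated with ethanol, and both were harvested at day 6. Knockout and 4-OHT exposure therefore cannot be told apart. H3K4me3, H3K27me3, input DNA and RNA were measured in 2 knockout and 2 control libraries each, and H3K9me3 in 2 F/F libraries with 2 inputs of their own, made with another library kit. The treatment of the cells behind those last 4 libraries is not given in the sources used here.

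Values are in RPM, that is, reads relative to each library's mapped total, and H3K4me3 depth was unequal, with 3830045 and 16578722 reads in the knockout libraries, against 10360152 and 18035122 in control libraries. H3K4me3 knockout library 1 also had the lowest share of reads in gene windows, 20.7%, against 25.6% and 29.0% in control libraries. Over all windows tested, the median H3K4me3 change was −0.25 on the log2 scale, so a lower value at a gene is read against that shift. The targeted gene, listed under its older symbol Wbp7, had 132 and 185 RPM of RNA in knockout cells, against 142 and 150 RPM in control cells, and a value summed over the whole gene does not check the loss of the floxed part. The 15 germ cell markers summed to 2217 and 2493 RPM of RNA in knockout cells, against 2267 and 2216 RPM in control cells. Both knockout libraries lay above both control libraries at 9 of these 15 germ cell markers, where 36.2% of all genes tested did. They lay below them at 2, where 16% of all genes tested did. The receptor gene Gfra1, among the 9, had 49.1 and 48.7 RPM in knockout cells, against 31.4 and 32.3 RPM in control cells. Mael, among the 2, had 323 and 321.5 RPM in knockout cells, against 346.5 and 346.2 RPM in control cells. The 24 feeder fibroblast markers summed to 659 and 828 RPM in knockout cells, against 596 and 630 RPM in control cells. The same separation upward was found at 13 of these 24 feeder markers, and downward at 0, where 36.2% of all genes tested were separate upward and 16% downward. The 13 Sertoli and Leydig cell markers summed to 26.7 and 31.3 RPM in knockout cells, against 25.6 and 25.2 RPM in control cells, with Cyp17a1 and Hsd3b1 at 0 throughout. The 8 blood markers summed to 7.93 and 6.60 RPM in knockout cells, against 5.80 and 5.97 RPM in control cells. Since these are bulk samples, fewer cells of a type and less RNA per cell cannot be told apart.

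In control GSCs most imprinted genes had a window that met the threshold used here for H3K4me3 and not that for H3K27me3. A window counted as marked by H3K4me3 where both libraries reached a log2 ratio over input of 1.5, and as marked by H3K27me3 where both reached 1. By this rule, 29 of 40 windows (72.5%) carried H3K4me3 only, against 49.9% of all windows. They include Dlk1, Ascl2 and Plagl1, where limma called H3K27me3 above input, as given below. Both marks were present at Magel2, a MAGE family gene of the Snrpn domain, and at Slc22a3, an organic cation transporter beside Igf2r. H3K27me3 without H3K4me3 was found at Grb10, an adaptor that restrains insulin and growth factor signalling, and at Asb4, an ankyrin repeat protein of the Peg10 domain. The other 7 windows had neither mark. With no filter on low values, limma called H3K4me3 above input at 33 of 40 windows (adjusted p under 0.05), where 62.7% of all windows were. The filter keeps windows largely through their own H3K4me3, so that 94.9% of all windows it kept were called, as were the 33 members it kept, and that count is not read further. The H3K4me3 ratio over input, averaged over the control libraries, ran from −0.48 to 5.03 on the log2 scale across the 40 windows, with a median of 3.75.

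The widest H3K4me3 separation from input was at Igf2r, the scavenger receptor for IGF2, which had 23.7 and 26.95 RPM of H3K4me3 in the control libraries, against 0.182 and 0.417 RPM of input. Ube3a, the ubiquitin ligase of the Snrpn domain, had 26.1 and 33.9 RPM of H3K4me3, against 0.456 and 0.486 RPM of input. Both genes are counted here in the maternally expressed class, and both windows were strongly marked in these male germ cells. Airn, the paternally expressed antisense RNA that overlaps Igf2r, had 5.98 and 7.15 RPM of H3K4me3, against 0.912 and 0.278 RPM of input, and no H3K27me3 above input.

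The 7 windows with neither mark belonged to Igf2, Usp29, Mest, Snrpn, Ddc, Blcap and Slc22a2, with at most 0.676 RPM of H3K4me3 in any of the knockout and control libraries. Of these windows only that of Slc22a2, which had at most 0.109 RPM of RNA in any library, lay at its only start in the RefSeq table, and the others have a start elsewhere. Mest, an imprinted hydrolase-fold gene, has RefSeq starts 9959, 14503 and 14506 bases downstream of the start in the table. Igf2, the fetal growth factor, has others 5545, 8012 and 9320 bases downstream. The start used for Snrpn, a spliceosomal protein gene, lay 6 bases from one RefSeq start, with others 92241 and 135020 bases downstream and 309958 bases upstream. The nearest RefSeq start of Usp29 lay 230577 bases upstream of its window, only 164 bases from the start of Peg3. An unmarked window at such a gene says nothing of its other starts, and Mest RNA was at 23.3 and 22.4 RPM in knockout cells, against 17.8 and 17.2 RPM in control cells.

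H3K27me3 exceeded input at 7 of 22 windows that passed the filter in control cells (31.8%), against 28.0% of all windows that did. With no filter it was called at 6 of 40, against 13.2% of all windows. Slc22a3 stood highest, with 10.9 and 6.32 RPM of H3K27me3, against 0.821 and 0.555 RPM of input, and a log2 ratio of 2.90. Magel2 had a log2 ratio of 2.11 and Grb10 of 1.92. The other 4 were Dlk1 (1.20), Ascl2 (1.15), Asb4 (1.13) and Plagl1 (0.92), and Peg3 was called below input (−0.91). By the rule of both libraries given above, all of these 7 except Asb4 and Grb10 were also marked by H3K4me3, and at those 2 limma called a smaller H3K4me3 ratio over input of 1.32 for Asb4 and 1.60 for Grb10.

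**Figure D1:**
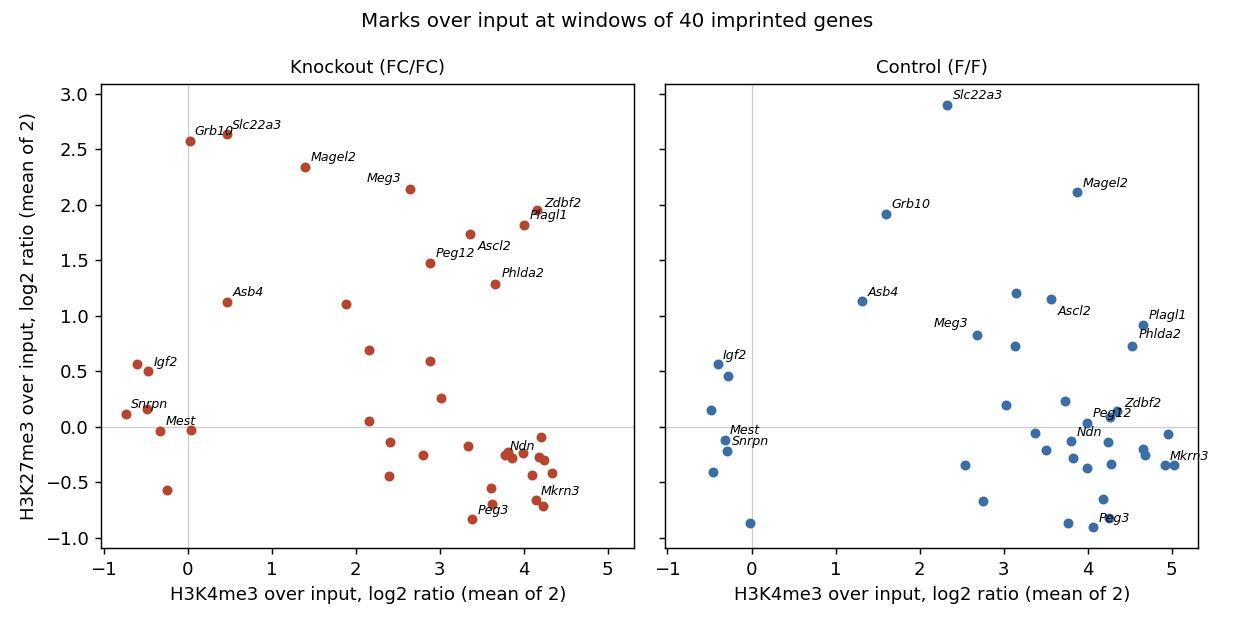
Log2 ratio of H3K27me3 over input against that of H3K4me3 over input, each the mean of 2 libraries, at the windows of 40 imprinted genes in knockout and control GSCs. Magel2 and Slc22a3 carry both marks in control cells and lie further left in knockout cells, while windows such as Mest and Snrpn stay near 0 on the H3K4me3 axis in both.

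The promoters of the genes had a higher median CpG count than all RefSeq promoters. RefSeq gave a promoter within 1000 bases of the table start for 31 members. Their median CpG count in 300 bases was 15, against 7 for all promoters, whose quartiles were 3 and 20. All promoters means every distinct RefSeq start, alternative starts included, whereas each member has only the start nearest the table start. The sets were thus chosen differently, also for the motif below. The letters TGCCGC, a motif of the zinc finger protein Zfp57 that binds methylated imprints, occurred on either strand in 8 of the 31 promoters, where 11.61% of all promoters held it. A match here is a description of the letters only. The sequences of 6 promoters are shown so that neighbours with different H3K4me3 values can be set side by side (Magel2, Peg12, Ndn and Mkrn3 of the Snrpn domain), with Nnat and Slc22a3 as called genes of other loci. Each run holds the 250 bases before the RefSeq start on the gene's strand, from RefSeq on GRCm38 (mm10), with CpG in capitals. The positions are chr7:62376729-62376978 (plus strand) for Magel2, chr7:62464511-62464760 (minus) for Peg12, chr7:62348027-62348276 (plus) for Ndn, chr7:62420154-62420403 (minus) for Mkrn3, chr2:157559828-157560077 (plus) for Nnat and chr17:12507705-12507954 (minus) for Slc22a3.
Magel2: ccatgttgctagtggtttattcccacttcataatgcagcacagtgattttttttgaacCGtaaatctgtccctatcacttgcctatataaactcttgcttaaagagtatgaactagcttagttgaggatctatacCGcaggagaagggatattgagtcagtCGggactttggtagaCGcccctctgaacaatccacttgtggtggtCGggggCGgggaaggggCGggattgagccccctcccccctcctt
Peg12: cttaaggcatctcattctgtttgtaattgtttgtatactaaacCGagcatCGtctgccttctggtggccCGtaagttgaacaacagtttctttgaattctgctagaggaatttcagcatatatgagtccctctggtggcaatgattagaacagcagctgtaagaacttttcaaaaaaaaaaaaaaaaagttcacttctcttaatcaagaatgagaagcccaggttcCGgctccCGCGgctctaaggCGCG
Ndn: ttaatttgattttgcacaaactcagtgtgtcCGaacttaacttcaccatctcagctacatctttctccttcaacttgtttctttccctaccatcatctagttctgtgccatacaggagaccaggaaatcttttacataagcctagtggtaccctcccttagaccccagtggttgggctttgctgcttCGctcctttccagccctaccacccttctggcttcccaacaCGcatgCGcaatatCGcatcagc
Mkrn3: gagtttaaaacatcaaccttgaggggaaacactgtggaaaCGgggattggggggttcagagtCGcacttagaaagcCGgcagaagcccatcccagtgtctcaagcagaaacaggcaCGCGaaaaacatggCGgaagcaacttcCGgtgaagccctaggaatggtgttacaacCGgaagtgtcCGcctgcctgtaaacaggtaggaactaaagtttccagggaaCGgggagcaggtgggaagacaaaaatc
Nnat: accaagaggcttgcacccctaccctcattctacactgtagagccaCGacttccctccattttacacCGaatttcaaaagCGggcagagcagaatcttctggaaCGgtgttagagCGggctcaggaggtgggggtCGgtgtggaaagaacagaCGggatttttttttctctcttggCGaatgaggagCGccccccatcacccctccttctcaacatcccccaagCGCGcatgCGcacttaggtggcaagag
Slc22a3: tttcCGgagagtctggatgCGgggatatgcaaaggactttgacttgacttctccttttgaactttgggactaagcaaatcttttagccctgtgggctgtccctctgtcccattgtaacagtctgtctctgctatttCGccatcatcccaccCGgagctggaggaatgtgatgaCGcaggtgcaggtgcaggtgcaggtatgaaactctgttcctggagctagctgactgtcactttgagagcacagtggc
Each stretch lies upstream of its gene's start, and that of Nnat lies within Blcap. Nnat had 12 CpG, Mkrn3 had 10, Peg12 had 8, Magel2 had 7, and Ndn and Slc22a3 had 5 each. How far the authors' windows reach into these stretches is not given in the sources used here.

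In knockout cells H3K4me3 was lower at 6 of the 33 imprinted windows tested (18.2%), where 9.89% of all windows tested were called lower. The 6 were Magel2, Grb10, Slc22a3, Nnat, Plagl1 and Peg3, and 0 were called higher. The median log2 change of the 33 was −0.50, against −0.25 over all windows. Both knockout libraries lay below both control libraries at 18 of 33 members, where 42.5% of all windows did. They lay above both control libraries at 1, Tssc4, where 9.03% of all windows did. Among paternally expressed genes 4 of 15 were called lower (median −0.54), and among maternally expressed genes 1 of 15 (median −0.40). The difference between these classes was not tested. The sixth, Grb10, is expressed from either copy by tissue, and 0 of the 2 tested genes imprinted by isoform were called.

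Magel2 had the clearest decrease, with 1.04 and 4.77 RPM of H3K4me3 in knockout libraries, against 9.56 and 12.6 RPM in control libraries. Both knockout values lay below both control values, and the first of them rests on 4 reads. The log2 change was −2.30 (SE 0.55, limma adjusted p = 0.00489). It was also called after division by input, at −2.48 (adjusted p = 0.0286), and without knockout library 1, at −1.21, which is a smaller change by over 1.5 times.

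None of the neighbours of Magel2 on the same stretch of chromosome 7 was called. Ndn, the necdin gene, starts 28702 bases away and had 12.5 and 16.2 RPM of H3K4me3 in knockout libraries, against 12.9 and 18.2 RPM in control libraries. Mkrn3, a makorin RING finger gene 43160 bases from Magel2 on the other side, had 24.3 and 27.8 RPM in knockout libraries, against 28.1 and 25.2 RPM in control libraries. The groups overlapped at both genes. Peg12, a Frat family gene 44371 bases beyond Mkrn3, had 5.22 and 11.4 RPM in knockout libraries, against 12.8 and 15.1 RPM in control libraries. Its groups did not overlap and it was not called. At Ube3a the groups overlapped, with 21.1 and 35.6 RPM in knockout libraries, against 26.1 and 33.9 RPM in control libraries.

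Grb10 had a weakly marked window, with 0.522 and 0.845 RPM of H3K4me3 in knockout libraries, against 2.90 and 3.99 RPM in control libraries. The log2 change was −2.36 (SE 0.71, adjusted p = 0.0227), with 2 reads behind the lowest value, and it was −1.58 and not called over input (adjusted p = 0.130). The nearest RefSeq start of Grb10 lies 1263 bases from the start in the table, and the 300 bases around that RefSeq start hold 45 CpG.

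Slc22a3 had 1.30 and 1.87 RPM of H3K4me3 in knockout libraries, against 4.44 and 6.60 RPM in control libraries. The groups did not overlap, and the log2 change was −1.79 (SE 0.63, adjusted p = 0.0461). Other genes of the Igf2r-Airn locus were not called. Igf2r had 15.1 and 26.1 RPM in knockout libraries, against 23.7 and 26.95 RPM in control libraries. Airn had 4.44 and 6.33 RPM in knockout libraries, against 5.98 and 7.15 RPM in control libraries, and these groups overlapped.

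The other called windows had smaller decreases. Nnat, the neuronatin gene nested within an intron of Blcap, had 8.88 and 13.9 RPM in knockout libraries, against 21.0 and 22.1 RPM in control libraries (log2 change −0.96, SE 0.33, adjusted p = 0.0459). Plagl1, a zinc finger factor that slows growth, had 12.8 and 17.0 RPM in knockout libraries, against 25.9 and 27.2 RPM in control libraries (−0.85, SE 0.29, adjusted p = 0.0396). Peg3, a zinc finger gene with known effects on growth and maternal care, had 9.92 and 19.5 RPM in knockout libraries, against 23.8 and 26.4 RPM in control libraries (−0.85, SE 0.30, adjusted p = 0.0465). None of the 3 groups overlapped. Without knockout library 1, the changes were −0.64 at Nnat (adjusted p = 0.0847), −0.64 at Plagl1, which was still called, and −0.36 at Peg3 (adjusted p = 0.274).

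H19, the non-coding RNA partner of Igf2, had 3.39 and 4.16 RPM of H3K4me3 in knockout libraries, against 8.21 and 8.71 RPM in control libraries. Its groups did not overlap, but the log2 change of −1.17 was not called (SE 0.52, adjusted p = 0.132). Asb4 had 1.04 and 1.63 RPM in knockout libraries, against 2.32 and 3.88 RPM in control libraries, a log2 change of −1.20 that was not called (SE 0.68, adjusted p = 0.267). At the paired promoters of Peg10, a retrotransposon-derived gene, and Sgce, whose starts lie 102 bases apart, H3K4me3 was alike, at 15.9 and 17.2 RPM for Peg10 and 14.1 and 17.6 RPM for Sgce in knockout libraries. The control libraries had 22.4 and 24.7 RPM at Peg10 and 21.7 and 24.8 RPM at Sgce.

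At the Dlk1-Meg3 locus, Dlk1 had 4.96 and 5.73 RPM of H3K4me3 in knockout libraries, against 6.66 and 8.15 RPM in control libraries, without overlap. Meg3 had 3.13 and 6.39 RPM in knockout libraries, against 5.98 and 8.59 RPM in control libraries, with overlap. Zim1, the maternally expressed zinc finger gene 33971 bases from Peg3, had 5.74 and 7.90 RPM in knockout libraries, against 12.8 and 12.1 RPM in control libraries. Its groups were separate and it was not called. Gnas, the stimulatory G protein subunit gene with starts imprinted in different ways, had 5.22 and 6.51 RPM in knockout libraries, against 6.08 and 8.37 RPM in control libraries, with overlap.

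At the Kcnq1ot1 locus Cdkn1c, an inhibitor of the cell cycle, had 6.27 and 10.9 RPM of H3K4me3 in knockout libraries, against 12.4 and 16.1 RPM in control libraries. Phlda2, a placental growth regulator, had 12.5 and 16.8 RPM in knockout libraries, against 20.5 and 24.2 RPM in control libraries. Tssc4, in the same cluster, had 20.1 and 20.9 RPM in knockout libraries, against 16.9 and 18.2 RPM in control libraries. The knockout values of Tssc4 lay above its control values and those of Cdkn1c and Phlda2 below, and none of the 3 was called. Of the retrogenes, which lie in an intron of a host gene, Mcts2 had 15.4 and 17.1 RPM in knockout libraries, against 14.2 and 15.9 RPM in control libraries. Zrsr1 had 12.3 and 16.2 RPM in knockout libraries, against 16.2 and 16.5 RPM in control libraries. The 25 tested members not given with a change here ran from −0.89 to 0.22 on the log2 scale.

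**Figure D2:**
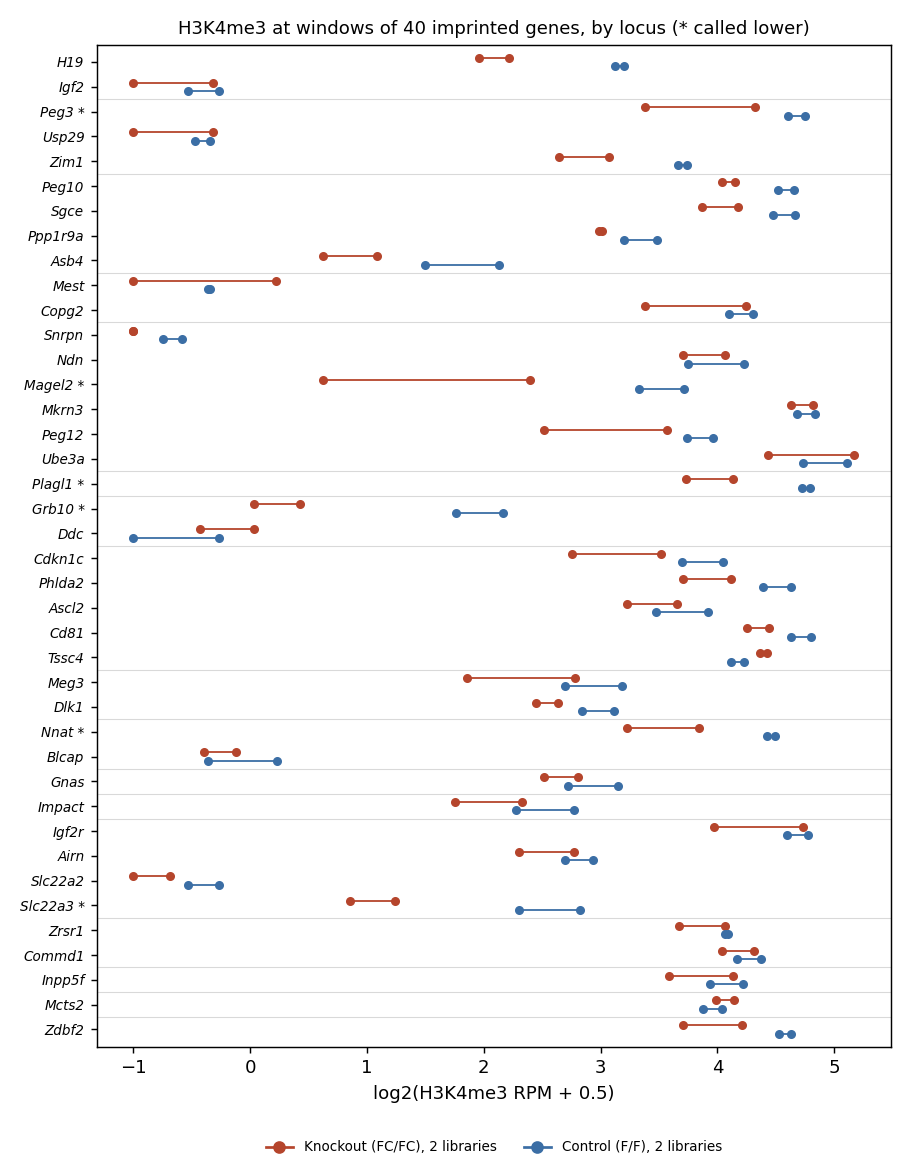
H3K4me3 as log2(RPM + 0.5) at the windows of 40 imprinted genes, grouped by locus, with 2 knockout libraries and 2 control libraries per gene as joined points and the 6 genes called lower starred. The knockout points of Magel2, Grb10 and Slc22a3 lie furthest below their control points, while Ndn and Mkrn3 beside Magel2 overlap.

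Without knockout library 1, the shallowest, 4 members were called (Magel2, Grb10, Slc22a3 and Plagl1), where 5.48% of all windows were called lower. With either control library left out, limma called 0 of all windows lower, so those fits say nothing about the members. Under quantile normalization 4 of the 33 members were called lower (12.1%), where 4.40% of all windows were. The decreases at Magel2, Grb10 and Slc22a3 were then −1.24, −1.03 and −0.50 and no longer called, Magel2 at an adjusted p of 0.0504. Asb4 was at 0.17. Input itself was called at 0 of the 33 windows by limma and limma voom. At an unadjusted p under 0.05, 3 were higher, where 345 of all 15464 windows were. The largest log2 changes of input were 2.05 at Igf2r, 1.45 at Mkrn3, −1.23 at Meg3, 1.07 at Ube3a and 1.06 at Magel2. These rest on inputs of 0.182 to 1.43 RPM, which enter the ratios over input.

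H3K27me3 was measurable in fewer windows, and 0 of the 12 members tested were called by limma, where 0.660% of all windows tested were called higher. At an unadjusted p under 0.05, 1 was higher, where 517 of all 4546 windows were. By limma voom on reads 1 was called, Zdbf2 (adjusted p = 0.0481), where 1.32% of all windows were called higher. The median log2 change was 0.73, against 0.44 over all windows tested. Both knockout libraries lay above both control libraries at 7 of 12 members, where 36.1% of all windows tested did.

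Zdbf2, a paternally expressed zinc finger gene, had 3.31 and 2.47 RPM of H3K27me3 in knockout libraries, against 1.09 and 0.549 RPM in control libraries. The groups did not overlap, and the log2 change was 1.88 (SE 0.57, adjusted p = 0.0796). H3K4me3 at the same window was 12.5 and 18.0 RPM in knockout libraries, against 22.6 and 24.2 RPM in control libraries, with groups that did not overlap and no call. Phlda2 had 2.36 and 2.47 RPM of H3K27me3 in knockout libraries, against 1.09 and 1.19 RPM in control libraries (log2 change 1.08, SE 0.56, adjusted p = 0.450). Meg3, the maternally expressed non-coding RNA of the Dlk1 locus, had 3.71 and 2.47 RPM in knockout libraries, against 2.19 and 1.19 RPM in control libraries (0.91, SE 0.57, adjusted p = 0.576). Each of these pairs of groups was separate, by less than the test requires.

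Of the 6 windows called lower in H3K4me3, Nnat and Peg3 were too low in H3K27me3 to test and none of the others was called. Plagl1 had 3.58 and 2.28 RPM of H3K27me3 in knockout libraries, against 2.05 and 1.099 RPM in control libraries (0.93, SE 0.56, adjusted p = 0.562). Magel2 had 7.16 and 3.42 RPM in knockout libraries, against 3.90 and 2.11 RPM in control libraries (0.79, SE 0.59, adjusted p = 0.692), and these groups overlapped. Grb10 had 6.62 and 6.17 RPM in knockout libraries, against 4.86 and 3.94 RPM in control libraries, without overlap. Slc22a3 had 12.02 and 6.45 RPM in knockout libraries, against 10.9 and 6.32 RPM in control libraries, with overlap. Peg12 was below the filter for this test and had 2.63 and 2.56 RPM in knockout libraries, against 0.753 and 0.183 RPM in control libraries, also without overlap. The 7 tested members not given with a change here ran from −0.15 to 0.74 on the log2 scale.

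**Figure D3:**
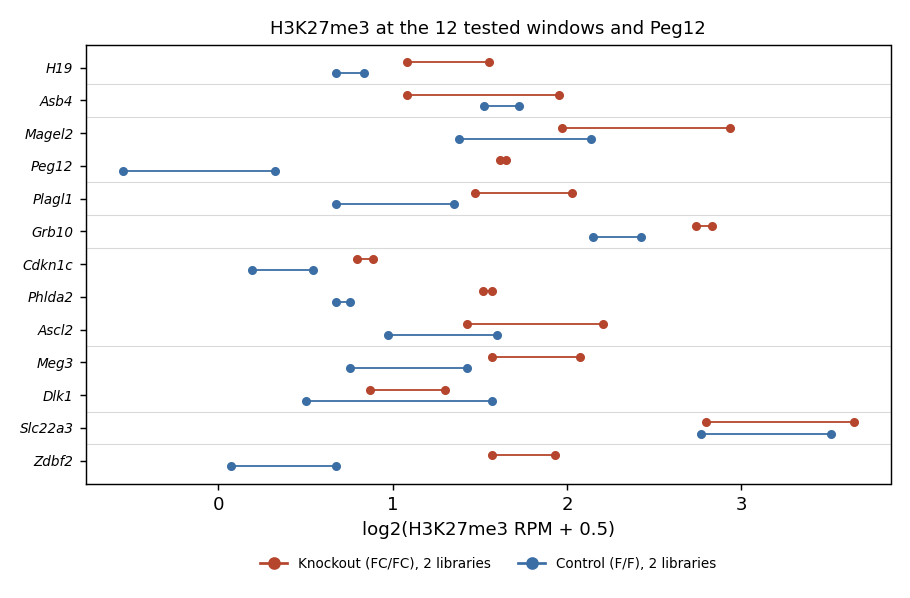
H3K27me3 as log2(RPM + 0.5) at the 12 tested imprinted windows and Peg12, with 2 knockout libraries and 2 control libraries per gene as joined points. Knockout points lie right of control points at Zdbf2, Phlda2, Grb10 and Peg12, and overlap at Slc22a3 and Magel2.

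With the same thresholds for both genotypes, 6 of the 29 windows with H3K4me3 only in control cells carried both marks in knockout cells (20.7%), against 6.07% of all such windows. They were Peg12, Plagl1, Phlda2, Ascl2, Meg3 and Zdbf2. In control library 1, Ascl2 (1.665), Plagl1 (1.417), Meg3 (1.24) and Phlda2 (1.044) already reached the H3K27me3 threshold of 1. Peg12 and Zdbf2 reached it in neither control library. At Ascl2 and Plagl1 limma also called H3K27me3 above input in control cells. Phlda2, Ascl2 (a basic helix-loop-helix factor of the placenta) and Meg3 are maternally expressed, and the other 3 paternally. Of the windows with both marks in control cells, 38.5% had H3K27me3 only in knockout cells, and Magel2 and Slc22a3 were among them. Grb10 kept H3K27me3 only, Asb4 was under both thresholds, and the 7 windows with neither mark stayed so. These classes describe single thresholds and carry no test, and H3K4me3 knockout library 1, the shallowest, enters all of them. Input enters them too. Of the 6 windows with both marks in knockout cells only, Meg3 had 0.253 and 0.351 RPM of input in knockout libraries, against 0.638 and 0.764 RPM in control libraries. The input groups overlapped at the others, and Zdbf2 had 2 reads in knockout input library 1. In knockout cells the median H3K4me3 ratio over input of the 40 windows was 2.95 on the log2 scale, against 3.75 in control cells.

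In RNA, 2 of the 34 members tested rose in knockout cells (5.88%), where 3.01% of all genes tested were called higher. These were Igf2 and H19, the neighbours whose table starts lie 88673 bases apart on chromosome 7. None was called lower by limma, where 0.312% of all genes were, and limma voom also called 0. At an unadjusted p under 0.05, 2 were lower, where 508 of all 14100 genes were. The median log2 change of the members was 0.20, against 0.06 over all genes tested. Both knockout libraries lay above both control libraries at 17 of 34 members, where 36.2% of all genes did. They lay below both control libraries at 6, where 16% of all genes did. RNA values are per gene and not per length, so levels are compared between libraries and not between genes.

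Igf2 RNA was 12.9 and 15.4 RPM in knockout libraries, against 7.15 and 5.16 RPM in control libraries, a mean of 14.2 ± 1.802 against 6.16 ± 1.41 RPM (SD, n = 2 each). The log2 change was 1.22 (SE 0.18, limma adjusted p = 0.0263), and it was called whichever library was left out. H19 RNA was 33.99 and 39.8 RPM in knockout libraries, against 20.5 and 23.4 RPM in control libraries, a mean of 36.9 ± 4.12 against 22.0 ± 2.02 RPM (SD, n = 2 each). Its log2 change was 0.75 (SE 0.12, adjusted p = 0.0304), and 0.65 without control library 1 (adjusted p = 0.161). Neither was called under quantile normalization (adjusted p = 0.0639 for Igf2 and 0.0546 for H19) or without the filter on low genes (adjusted p = 0.0833 and 0.0840), where 0 of all genes were called. At H19 the H3K4me3 values lay in the other direction from the RNA, lower in both knockout libraries.

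Of 22 feeder markers tested in RNA, Pdgfra (log2 change 0.73), Col1a1 (0.71) and Twist1 (0.81) were called higher, where 3.01% of all genes tested were, and 11 of the 24 feeder markers had groups that overlapped. Col1a1, a fibroblast collagen, had 202 and 245 RPM in knockout libraries, against 131 and 142 RPM in control libraries. Igf2, H19, Dlk1 and Meg3 are also expressed in embryonic fibroblasts, and the part of feeder RNA in these results was not tested.

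At the Dlk1-Meg3 locus on chromosome 12, Dlk1, a transmembrane relative of Notch ligands, had 74.6 and 78.1 RPM of RNA in knockout libraries, against 58.5 and 60.5 RPM in control libraries. Meg3 had 9.22 and 11.9 RPM in knockout libraries, against 6.01 and 8.23 RPM in control libraries (log2 change 0.57, SE 0.19, adjusted p = 0.162). The groups did not overlap at either gene, and neither was called. Dio3, a deiodinase that inactivates thyroid hormone at the far end of this locus (chr12:110279068-110281097), belongs to a list of further imprinted genes and was called higher. It had 3.78 and 3.77 RPM in knockout libraries, against 0.910 and 0.947 RPM in control libraries (log2 change 2.02, adjusted p = 0.0185), and it was not called without the filter on low genes (adjusted p = 0.0745). H3K4me3 at the Dio3 window was 5.74 and 8.63 RPM in knockout libraries, against 10.2 and 12.6 RPM in control libraries.

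Zdbf2 RNA lay lower in both knockout libraries, at 10.6 and 12.7 RPM, against 18.0 and 17.1 RPM in control libraries. The log2 change of −0.60 was not called (SE 0.13, adjusted p = 0.0551), and it was called under median centring (−0.70, adjusted p = 0.0309) and under scaling to reads in genes (−0.60, adjusted p = 0.0320). Adam23, its neighbour on chromosome 1 from the list of further imprinted genes, was called lower, with 11.01 and 13.96 RPM in knockout libraries, against 20 and 19.9 RPM in control libraries (−0.69, adjusted p = 0.0471). Both genes also had lower H3K4me3 and higher H3K27me3 values in both knockout libraries, with no call at Adam23 in H3K4me3 and H3K27me3 there too low to test. At Adam23, H3K27me3 was 2.03 and 1.33 RPM in knockout libraries, against 0.479 and 0.458 RPM in control libraries. Its H3K4me3 was 9.40 and 14.4 RPM in knockout libraries, against 17.9 and 18.2 RPM in control libraries.

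**Figure D4:**
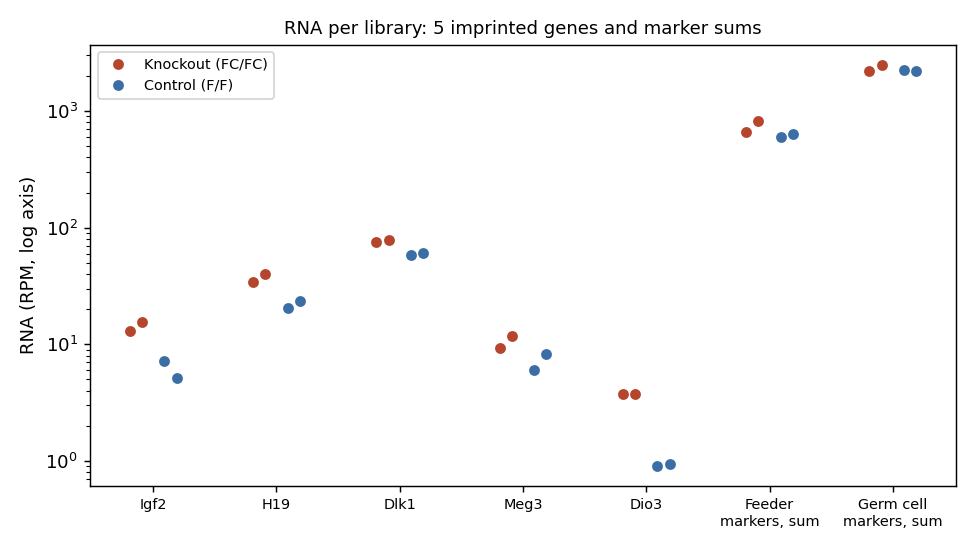
RNA in RPM on a log axis for Igf2, H19, Dlk1, Meg3 and Dio3 and for the summed feeder and germ cell markers, with 1 point for each of 2 knockout libraries and 2 control libraries. The knockout points lie above the control points at all 5 genes and at the feeder sum, and the germ cell sums overlap.

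Of the 6 genes called lower in H3K4me3, Magel2 was too low in RNA to test and none of the others was called in RNA. Nnat had 13 and 10.7 RPM of RNA in knockout libraries, against 14.9 and 16.0 RPM in control libraries. Plagl1 had 3.78 and 4.40 RPM in knockout libraries, against 4.39 and 4.12 RPM in control libraries, and Grb10 had 6.62 and 8.27 RPM, against 7.51 and 8.68 RPM. The groups overlapped at Plagl1 and Grb10 but not at Nnat. Peg3 RNA was 20.3 and 26.4 RPM in knockout libraries, against 18.0 and 16.9 RPM in control libraries, which is opposite in direction to its H3K4me3. Slc22a3 had 1.60 and 1.099 RPM in knockout libraries, against 1.72 and 1.58 RPM in control libraries. Magel2 RNA was at 0.175 RPM in each knockout library, against 0.728 and 0.113 RPM in control libraries.

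Ddc, the decarboxylase imprinted by isoform beside Grb10, had 2.71 and 2.55 RPM in knockout libraries, against 1.79 and 1.74 RPM in control libraries (0.57, SE 0.18, adjusted p = 0.147). In the Snrpn domain, Snrpn had 10.01 and 7.77 RPM of RNA in knockout libraries, against 8.17 and 7.71 RPM in control libraries. Ndn had 23.0 RPM in each knockout library, against 21.1 and 18.0 RPM in control libraries, and Ube3a had 25.3 and 33.6 RPM, against 32.5 and 29.1 RPM. Cdkn1c had 38.2 and 39.5 RPM in knockout libraries, against 35.0 and 39.5 RPM in control libraries. Peg10 had 44.7 and 58.3 RPM in knockout libraries, against 36.4 and 36.9 RPM in control libraries, and Impact, an inhibitor of Gcn2 signalling, had 11.97 and 13.7 RPM, against 9.07 and 8.65 RPM. Neither was called, although the groups did not overlap.

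In the Kcnq1ot1 cluster, where the Cdkn1c groups overlapped, the RNA groups of Phlda2, Ascl2, Cd81 and Tssc4 were separate and none was called. Phlda2 had 12.96 and 10.5 RPM of RNA in knockout libraries, against 8.66 and 7.91 RPM in control libraries. Ascl2 had 5.88 and 5.27 RPM in knockout libraries, against 3.85 and 4.33 RPM in control libraries. Cd81, a tetraspanin found on the surface of many cells, had 40.4 and 36.7 RPM in knockout libraries, against 43.9 and 45.5 RPM in control libraries. Tssc4 had 27.7 and 26.7 RPM in knockout libraries, against 29.4 and 29.0 RPM in control libraries, lower in RNA where its H3K4me3 values were higher. Phlda2 and Ascl2 were among the windows that met the thresholds of both marks in both libraries in knockout cells only. The RNA values of Phlda2 and Ascl2 in knockout cells lay above those of control cells. Gnas had 70.9 and 71.3 RPM in knockout libraries, against 62.3 and 60.9 RPM in control libraries, and Sgce, the epsilon-sarcoglycan gene, had 4.15 and 3.67 RPM, against 2.81 and 3.09 RPM. Igf2r groups overlapped, with 77.6 and 109 RPM in knockout libraries, against 84.2 and 84.3 RPM in control libraries. The 29 tested members not given with a change here ran from −0.39 to 0.53 on the log2 scale. Because the strand setting of the counting is not given in the sources used here, reads of Airn and Igf2r, Nnat and Blcap, Zrsr1 and Commd1, and Mest and Copg2 may be shared between the overlapping partners.

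**Figure D5:**
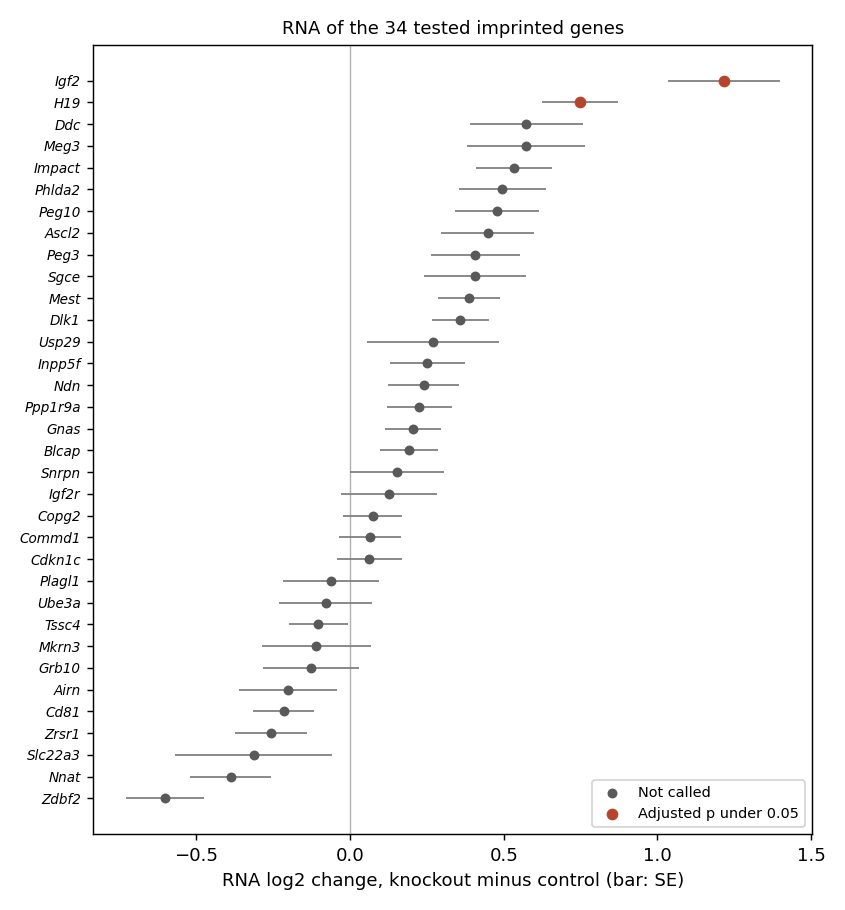
Log2 change of RNA, knockout minus control, with its standard error for the 34 tested imprinted genes in order of size, with called genes in red. Igf2 (1.22) and H19 (0.75) are the called genes at the top, and Zdbf2 (−0.60) lies lowest.

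H3K9me3 lay below its input at most windows of the table, imprinted genes included. With no filter, limma called it lower than input at 29 of 40 members (median log2 ratio −0.50), where 81.4% of all windows were called lower (median −0.66). At 0 of 40 members did both libraries reach a log2 ratio of 1, against 1.93% of all windows. Igf2 was the highest, with 1.09 and 1.84 RPM of H3K9me3, against 0.472 and 0.662 RPM in the inputs, a log2 ratio of 0.86. It alone passed the filter on low values, through its own H3K9me3, and 62.1% of all windows that passed were called above input, so its call is not read further. The other 39 windows had mean log2 ratios between −0.97 and 0.04. H19, Meg3 and Zdbf2, near the paternally methylated regions, were among the windows below input.

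A list of 48 further imprinted genes, of which 44 were found, was set beside these members. H3K4me3 was called lower at 8 of 37 tested, where 9.89% of all windows were, among them Qpct (−2.53), Calcr (−2.20) and Tfpi2 (−2.15), and higher at 0. Without knockout library 1 it was called lower at 3, where 5.48% of all windows were. H3K27me3 was called at 0 of 17 by limma, with 1 higher at an unadjusted p under 0.05, where 517 of all 4546 windows were. In RNA, Dio3 and Adam23 were the only calls among 23 tested, where 3.01% of all genes were called higher and 0.312% lower. Of 24 factors that set, keep or remove imprints, such as Dnmt3l, Zfp57, Ctcfl and Tet1, limma called 0 of 19 in H3K4me3. At an unadjusted p under 0.05, 2 were lower, where 3776 of all 15464 windows were. By limma voom 1 was called lower, where 17.1% of all windows were. In H3K27me3 0 of 2 were called, and 0 at an unadjusted p under 0.05. In RNA 0 of 23 were called by limma or by limma voom. At an unadjusted p under 0.05, 5 were higher, where 2326 of all 14100 genes were.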

How the data were processed

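Both deposited tables hold log2 RPM calculated by the authors, 1 window per gene for chromatin and 1 row per gene for RNA, not divided by input or length. CASAVA 1.8, Trim Galore 0.4.0, Bowtie 1.1.1, TopHat2 2.0.14 and build mm10 are named, without roles, per the submitters' processing notes. The place and size of the windows and the strand setting are not given in the sources used here. RPM were whole multiples of what 1 read is worth in each library (0.0157 to 0.261 RPM), within 0.1 read. Because the unit is log2, the main fits used no count model, and limma voom on the reads recovered from RPM was run as an alternative. Knockout was compared with control by limma (version 3.58.1, run in R 4.3.3, trend on the mean, two-sided), adjusted by Benjamini-Hochberg over all rows tested and called at an adjusted p under 0.05. Rows were tested where log2 RPM averaged 0 or more, and input over the H3K4me3 rows. Ratios over input used log2(RPM + 0.5) and rows averaging 0.5 RPM or more. The code was tested on simulated data. Changes are given for called members and the 5 with the largest change per comparison, and other members by level. The members and lists were chosen with earlier results of these data known. The series' design names duplicate cell lines, and the labels do not say which of the 2 libraries per group came from which line. The p-values rest on a spread between libraries that limma shares over rows of like mean, and not on each gene's own 2 libraries per group alone.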

Additional observations from a re-analysis of the deposited data

How the results depend on the processing

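Over single genes and alternatives, 209 values were unchanged in direction and call, 22 were newly called and 34 no longer called. The sign was opposite for 1, Asb4 H3K4me3 under quantile normalization (0.173). The 209 include members not called in the main fit that stayed uncalled, those of input among them. Only the 6 members called in H3K4me3 and the 2 called in RNA could lose a call. The 6 members lower in H3K4me3 became 2 with no filter, 2 over input, 13 with the replicate block and 0 to 20 with 1 library left out, while the share of all windows called lower, 9.89%, became 4.12%, 2.12%, 25.9% and 0 to 43.7%. The count of 0 in H3K27me3 became 1 under scaling to reads in windows, with no filter and by limma voom, 5 with the replicate block, and 0 to 1 with 1 library left out, while 1.65%, 0.195%, 1.32%, 25.8% and 0 to 2.33% of all windows were called higher. The 2 in RNA became 0 under quantile normalization and with no filter, 4 under scaling to reads in genes, 8 higher with the replicate block, and 1 to 17 with 1 library left out, while 0.355%, 0, 4.45%, 9.16% and 1.61 to 37.3% of all genes were called higher. The shares of all rows thus moved as well, though not always in the same direction as the members. With no filter, 1 member was newly called in H3K27me3, while the share of all windows called higher fell from 0.660% to 0.195%. In control cells the 33 members with H3K4me3 over input became 6 under median centring, which sets the median window to 0. The share of all windows tested went from 94.9% to 10.2%. Under that setting 9 members were called below input (27.3%), where 26.9% of all windows were. The 7 with H3K27me3 over input became 5 under median centring, while the share of all windows tested went from 28.0% to 25.3%. The 1 with H3K9me3 became 0 under median centring, where 0.0748% of all windows tested were called above input. The H3K27me3 and H3K9me3 counts also changed with 1 library left out. Samples of the same number deviated together at correlations of 0.153 for H3K4me3, 0.0747 for H3K27me3, 0.0909 for RNA and 0.00024 for input, and nothing in the labels says that a number marks a cell line, so the block is not the basis of any result. Unless the construction shows it, the cause was not tested. A library left out leaves 1 sample in its group, which is assumed to vary like the other group. At this depth 2 to 5 reads stand behind the lowest H3K4me3 values of Magel2, Grb10 and Slc22a3.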
